A study of Homo sapiens with 18 samples.

Results

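The transcripts of LIF and of the IL6 family of cytokines were followed in OVCAR-3 cells treated with inhibitors of the bromodomain and extra-terminal (BET) proteins. Of the 58825 genes counted, 10 were selected by symbol after the Ensembl identifiers of the count tables were matched to GENCODE 44. They comprised the ligands LIF, IL6, IL11 and CLCF1, the receptors LIFR, IL6ST and IL6R, and the signal genes SOCS3, STAT3 and JAK1. LIF headed the selection because it had the largest early fall. Its 4 h values are therefore given as a description without a test, whereas its 24 h libraries took no part in that choice and were tested.

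OVCAR-3 is an established human line of high-grade serous ovarian carcinoma. Cells received DMSO as vehicle control, i-BET858 or i-BET151 for 4 or 24 h in stripped medium, each inhibitor at 1 µM, with 3 replicates of each of the 6 conditions and 18 libraries in all. The study describes i-BET858 as a bivalent inhibitor of the whole BET family and i-BET151 as its predecessor, and both were compared to learn how their transcriptomic effects differ. All conditions shared the cell line and the medium, and 1 cell line at 1 dose was measured, so that every comparison of either inhibitor at a given time used the same 3 DMSO libraries.

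Cytokines of the IL6 family signal through IL6ST (gp130), a receptor chain that they share. LIF and CLCF1 need LIFR as a partner of IL6ST, whereas IL6 and IL11 bind their own alpha receptor, which for IL6 is IL6R. The assembled receptor activates JAK kinases such as JAK1, which phosphorylate STAT3, and STAT3 induces SOCS3, an inhibitor of the same receptor complex. In ovarian carcinoma the family is known for cytokines that tumour cells and their surroundings release. BET proteins bind acetylated histones through their bromodomains and promote transcription, and the inhibitors occupy these bromodomains.

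Library totals ranged from 27323969 to 46299994 counts (median 32267434), so that 3 counts corresponded to between 0.0648 and 0.11 CPM (counts scaled to the size of the library). The libraries numbered 3 stood apart, with 17817 to 20642 genes counted at least once compared to 23674 to 24947 in the libraries numbered 1 and 2. All 9 markers of serous ovarian epithelium, among them PAX8, WT1, EPCAM and KRT7, exceeded 1 CPM in every library. Their summed level was 8624 to 10058 CPM with DMSO at 4 h and 8616 to 10117 CPM at 24 h. With i-BET858 it was 11602 to 12136 CPM at 4 h and 6776 to 7152 CPM at 24 h, and with i-BET151 it was 9675 to 10278 CPM and 6771 to 7270 CPM. KRT8 alone made up 3740 to 7369 CPM of this sum, and the markers did not move as one. At 24 h KRT7, KRT8 and KRT18 were lower than with DMSO in all 9 pairs of libraries with both inhibitors, whereas CDH1 was at 400 to 565 CPM with i-BET858 and 342 to 456 CPM with i-BET151, above its 218 to 232 CPM with DMSO. With i-BET151 at 24 h, PAX8 (571 to 612 CPM) and WT1 (169 to 180 CPM) were also above their DMSO levels of 389 to 555 CPM and 145 to 152 CPM. The part of these markers in the results was not tested. Of the markers of other cell types, only COL1A1 of the 5 fibroblast genes exceeded 1 CPM in every library (21.1 to 46.7 CPM), and none of the 5 leukocyte or 3 endothelial genes did. CD3E had no count in 16 libraries, CD68 in 17 and COL3A1 in 14. In contrast, VWF exceeded 1 CPM in 17 libraries (up to 4.88 CPM), CD14 in 8 (up to 2.10 CPM) and COL1A2 in 7 (up to 3.62 CPM). These are bulk libraries, in which fewer cells of a kind and less RNA per cell cannot be told apart.

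Promoter sequences from RefSeq (GRCh38.p14) matched 8 of the 10 genes, with 13 start sites in all, and had no entry for LIF and CLCF1. Each window held 250 bases before and 50 bases after the start. It was searched on both strands for the STAT motif TTCNNNGAA, the AP-1 motif TGANTCA and the TATA motif TATAAA, with overlaps counted for each motif. A motif was found at 3 genes, LIFR, IL6R and IL11, and 1 window of each is printed to show where it lies. The receptor gene LIFR (ENSG00000113594.10) held TTCCTTGAA 165 bases upstream of the outermost of its 3 RefSeq starts in the table, which lies within the GENCODE gene, at chr5:38595356-38595655 on the minus strand. IL6R (ENSG00000160712.13) held TGAGTCA 38 bases downstream of the start, at chr1:154405093-154405392 on the plus strand. The ligand gene IL11 (ENSG00000095752.7) held TGAGTCA 96 bases upstream, at chr19:55370414-55370713 on the minus strand. Capitals mark these motifs, and each sequence reads 5′ to 3′ along the gene's strand.
LIFR: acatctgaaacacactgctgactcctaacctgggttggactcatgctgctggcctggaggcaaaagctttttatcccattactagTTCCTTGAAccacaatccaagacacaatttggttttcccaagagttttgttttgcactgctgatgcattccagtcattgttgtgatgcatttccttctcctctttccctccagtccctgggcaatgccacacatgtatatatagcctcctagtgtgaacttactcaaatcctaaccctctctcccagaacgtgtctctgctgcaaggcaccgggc
IL6R: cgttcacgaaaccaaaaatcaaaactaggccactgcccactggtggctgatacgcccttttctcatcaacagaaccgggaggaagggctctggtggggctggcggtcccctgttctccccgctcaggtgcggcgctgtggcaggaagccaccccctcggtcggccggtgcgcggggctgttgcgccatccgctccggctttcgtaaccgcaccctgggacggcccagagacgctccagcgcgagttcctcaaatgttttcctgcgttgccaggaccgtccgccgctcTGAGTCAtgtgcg
IL11: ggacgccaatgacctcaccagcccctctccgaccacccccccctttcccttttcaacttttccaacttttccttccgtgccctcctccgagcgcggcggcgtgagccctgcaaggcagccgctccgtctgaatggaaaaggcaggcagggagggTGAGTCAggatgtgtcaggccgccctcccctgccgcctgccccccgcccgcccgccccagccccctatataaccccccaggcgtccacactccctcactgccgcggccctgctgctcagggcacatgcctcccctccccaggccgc
Among all 35116 promoter windows of the same length, 7.66% held the STAT motif, 7.71% the AP-1 motif and 11.5% the TATA motif. The second LIFR window held TTCATCGAA 182 bases upstream together with TATA matches. No match was found in the windows of IL6, IL6ST, SOCS3, STAT3 and JAK1, which says only that these letters were not within these 300 bases. Neither SOCS3 window (chr17:78360876-78361175 and chr17:78359618-78359917, minus strand) held the start of the GENCODE gene at 78360077. The bases around that start of SOCS3 were thus not searched. The IL6 window lay within the GENCODE gene.

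LIF (ENSG00000128342.5, chr22:30240453-30246759, minus strand, GRCh38) encodes leukaemia inhibitory factor, a secreted cytokine. After 4 h with DMSO, its level was 18.9, 37.6 and 29.7 CPM in replicates 1 to 3, from 614, 1459 and 946 counts. With i-BET858 it was 2.08, 1.84 and 0.455 CPM, from 57, 56 and 16 counts. With i-BET151 it was 1.84, 2.18 and 0.450 CPM, from 53, 60 and 16 counts. Every treated library lay far below every DMSO library, and replicate 3 was the lowest with both inhibitors. The mean was 28.7 ± 9.41 CPM (SD, n = 3) with DMSO, 1.46 ± 0.877 CPM with i-BET858, which was 5.08% of the DMSO mean, and 1.49 ± 0.918 CPM with i-BET151, which was 5.19%. On the fitted log2 scale, the differences were −4.31 and −4.29, or 19.9-fold and 19.6-fold. Among transcripts whose average log2 CPM reached 1 and that were at least 2-fold lower at an adjusted p under 0.05 and lower in all 9 pairs of libraries, LIF ranked 1 of 1084 with i-BET858, ahead of NOG at −3.24. With i-BET151 it ranked 1 of 441, ahead of PALMD at −2.84. These ranks are the values behind the choice of LIF.

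The 24 h libraries gave a separate measurement of LIF. The level was 21.1, 23.8 and 11.9 CPM with DMSO, 1.55, 1.44 and 0.234 CPM with i-BET858, and 1.51, 1.37 and 1.86 CPM with i-BET151. Again no treated library reached any DMSO library, although the treated libraries still held between 8 and 71 counts of LIF. The mean was 18.9 ± 6.24 CPM with DMSO, 1.07 ± 0.730 CPM (5.68%) with i-BET858 and 1.58 ± 0.254 CPM (8.36%) with i-BET151 (SD, n = 3 each). LIF fell by 4.15 on the log2 scale with i-BET858 (SE 0.51, 95% CI −5.27 to −3.02, adjusted p = 9.72e-05). With i-BET151 it fell by 3.59 (SE 0.49, 95% CI −4.68 to −2.50, adjusted p = 3.13e-04). Both tests were edgeR quasi-likelihood tests adjusted over all genes, as are those below. By then other transcripts had fallen further, and LIF ranked 15 of 1359 falls with i-BET858 and 26 of 942 with i-BET151 by the same rule as at 4 h. The antisense genes LIF-AS1 and LIF-AS2 share 4.37% of the exon bases of LIF, and since the counting strand is not given in the sources used here, reads from that stretch cannot be assigned to a strand.

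Over the 6 conditions the mean level of LIF was highest with DMSO at 4 h, followed by DMSO at 24 h, whose ranges of 18.9 to 37.6 CPM and 11.9 to 23.8 CPM overlapped. The 4 treated means of 1.58, 1.49, 1.46 and 1.07 CPM followed, and their ranges overlapped throughout. In the libraries numbered 3, LIF was at 0.455, 0.450 and 0.234 CPM in 3 of the 4 treated conditions and at 1.86 CPM with i-BET151 at 24 h. With all libraries numbered 3 left out, the log2 difference of LIF at 24 h was −3.93 with i-BET858 (adjusted p = 3.56e-09) and −3.99 for i-BET151 (adjusted p = 8.16e-09), and those at 4 h were −3.85 and −3.82.

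**Figure D1:**
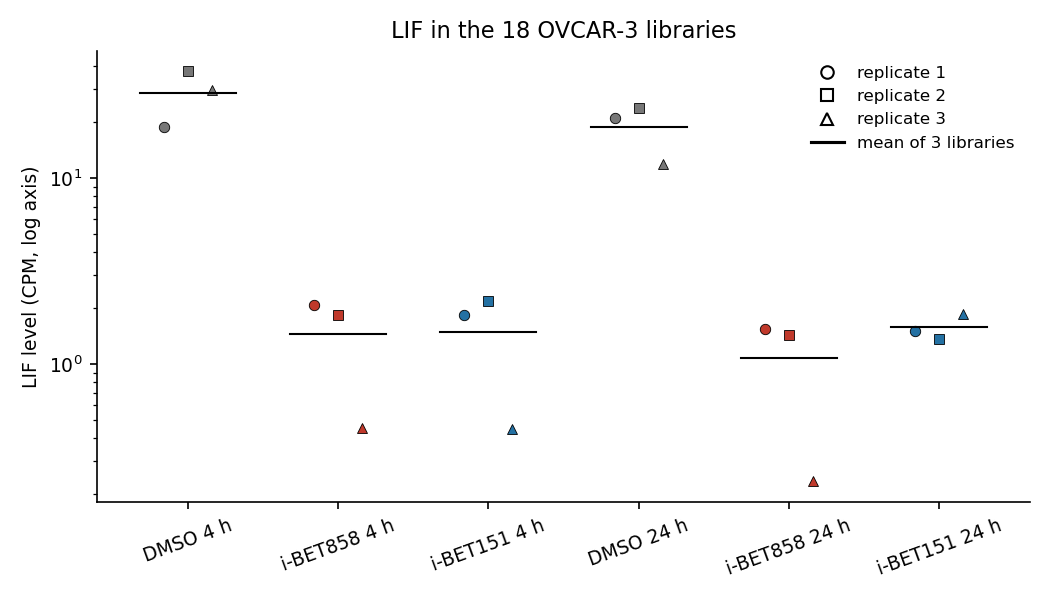
Level of LIF in CPM (log axis) in each of the 18 libraries, by condition. Symbols mark the replicate number and lines the mean of 3 libraries. The 12 treated libraries sit at or below 2.18 CPM, and the 6 DMSO libraries at or above 11.9 CPM.

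IL6 (ENSG00000136244.12, chr7:22725884-22732002), the cytokine that names the family, was close to the limit of detection. It had 4, 2 and 10 counts in the DMSO libraries of 4 h and 2, 5 and 8 in those of 24 h. The 4 treated conditions had between 0 and 2 counts per library, and all 3 libraries with i-BET151 at 24 h had none. Every treated library was thus lower than every DMSO library of its time, at levels at or below the 3 counts that a count of 0 allows. IL6 did not pass the filter on low counts at either time. Without that filter, the adjusted p was 0.469 and 0.403 for i-BET858 and i-BET151 at 4 h, and 0.428 and 0.0745 at 24 h, so that a change of IL6 was not detectable at this depth. Genes on the opposite strand share 9.91% of its exon bases.

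IL11 (chr19:55364382-55370463), a related cytokine with its own alpha receptor, was low too. At 4 h it had 0.584, 1.19 and 0.376 CPM with DMSO, 0.803, 0.427 and 0.341 CPM with i-BET858, and 0.660, 1.20 and 0.197 CPM with i-BET151. The groups overlapped at 4 h, and neither difference passed the threshold (log2 fold change −0.46, adjusted p = 0.696, and −0.08, adjusted p = 0.960). At 24 h the DMSO libraries had 39, 22 and 17 counts, compared to 8, 8 and 0 in the i-BET858 libraries and 5, 9 and 4 in the i-BET151 libraries. All treated libraries were below all DMSO libraries at 24 h. The mean was 0.821 ± 0.328 CPM with DMSO and 0.132 ± 0.117 CPM with i-BET858 (SD, n = 3 each). IL11 passed the 24 h filter only through its DMSO libraries, since no treated library exceeded the filter level of 0.294 CPM. Low treated groups were thus built into its selection, and the fitted values are given without reading a fall from them. The fitted log2 difference was −2.62 with i-BET858 and −2.28 for i-BET151, and no test is given.

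CLCF1 (ENSG00000175505.11, chr11:67364168-67374177, minus strand) encodes cardiotrophin-like cytokine factor 1, which signals through CNTFR, LIFR and IL6ST. At 4 h its level was 10.5, 12.8 and 9.22 CPM with DMSO, 3.25, 2.79 and 4.83 CPM with i-BET858, and 4.24, 4.55 and 2.33 CPM with i-BET151. Both treated groups lay well below the DMSO group. CLCF1 fell by 1.57 on the log2 scale with i-BET858 (SE 0.30, 95% CI −2.23 to −0.91, adjusted p = 0.00220) and by 1.55 with i-BET151 (SE 0.30, 95% CI −2.22 to −0.89, adjusted p = 0.00514), or 2.97-fold and 2.94-fold. At 24 h the DMSO libraries had 11.0, 11.9 and 5.57 CPM, the i-BET858 libraries 8.40, 9.81 and 8.22 CPM, and the i-BET151 libraries 7.32, 7.03 and 4.83 CPM. By then the i-BET858 group fell within the range of the DMSO group, and the i-BET151 group overlapped it. The 24 h differences of −0.14 (95% CI −0.73 to 0.45, adjusted p = 0.711) and −0.59 (95% CI −1.18 to 0.01, adjusted p = 0.120) did not pass the threshold, and with the replicate number as a block the i-BET151 difference did (−0.56, adjusted p = 0.0267). A gene on the same strand shares 3.32% of the exon bases of CLCF1.

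LIFR (chr5:38474668-38608354, minus strand) encodes the receptor chain for LIF. Its level with DMSO was 31.3, 26.6 and 33.7 CPM at 4 h and 21.8, 21.8 and 24.9 CPM at 24 h. With i-BET858 it was 30.5, 47.9 and 47.7 CPM at 4 h and 58.7, 46.8 and 70.0 CPM at 24 h. With i-BET151 it was 35.0, 31.3 and 63.6 CPM at 4 h and 45.0, 60.3 and 63.4 CPM at 24 h. The groups overlapped at 4 h, where the differences of 0.46 (adjusted p = 0.215) and 0.50 (adjusted p = 0.235) did not pass the threshold, and separated fully at 24 h. At 24 h LIFR rose by 1.32 on the log2 scale with i-BET858 (SE 0.17, 95% CI 0.94 to 1.70, adjusted p = 1.48e-04) and by 1.28 with i-BET151 (SE 0.17, 95% CI 0.90 to 1.66, adjusted p = 2.78e-04), or 2.49-fold and 2.43-fold. The mean LIF level at 24 h was thus 5.68% and 8.36% of that with DMSO, while the mean LIFR level was 257% and 247%. The antisense gene LIFR-AS1 shares 5.17% of the exon bases of LIFR.

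IL6ST (chr5:55935095-55995022, minus strand), the shared signal-transducing chain, was abundant in all conditions. With DMSO it ranged from 60.5 to 70.1 CPM at 4 h and from 46.3 to 60.5 CPM at 24 h. With i-BET858 the ranges were 75.1 to 104 CPM and 55.5 to 65.4 CPM, and with i-BET151 71.1 to 76.6 CPM and 55.4 to 66.5 CPM. At 4 h every treated library was above every DMSO library, by a small margin with i-BET151. The difference with i-BET858 at 4 h was 0.41 (95% CI 0.09 to 0.73), with an adjusted p of 0.0501 that fell to 0.00785 with the replicate block. With i-BET151 at 4 h it was 0.19 (adjusted p = 0.417). At 24 h the differences were 0.23 (adjusted p = 0.212) with i-BET858 and 0.26 (adjusted p = 0.168, or 0.0486 with the replicate block) with i-BET151. A gene on the opposite strand shares 6.61% of the exon bases of IL6ST.

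IL6R (chr1:154405193-154469450, plus strand) encodes the alpha receptor for IL6. At 4 h its level was 15.2, 18.6 and 18.7 CPM with DMSO, 14.9, 18.1 and 21.5 CPM with i-BET858, and 12.7, 10.6 and 15.1 CPM with i-BET151. The i-BET858 group overlapped the DMSO group (difference 0.06, adjusted p = 0.858), and the i-BET151 group lay just below it (−0.45, adjusted p = 0.142, or 0.0269 with the replicate block). At 24 h the level was 12.4, 11.5 and 9.01 CPM with DMSO, 4.77, 4.31 and 6.32 CPM with i-BET858, and 5.22, 6.30 and 8.27 CPM with i-BET151. All treated libraries were then below all DMSO libraries. IL6R fell by 1.13 on the log2 scale with i-BET858 (SE 0.23, 95% CI −1.64 to −0.63, adjusted p = 0.00240), or 2.19-fold. It fell by 0.75 with i-BET151 (SE 0.23, 95% CI −1.25 to −0.25, adjusted p = 0.0257), and this call was lost without DMSO replicate 1 or 2 or i-BET151 replicate 1 or 2 (adjusted p = 0.0751 to 0.101). LIFR and IL6R thus differed in direction at 24 h, LIFR being higher and IL6R lower with both inhibitors.

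SOCS3 (ENSG00000184557.4, chr17:78356778-78360077, minus strand), the feedback inhibitor, responded early and to i-BET858. At 4 h it had 85.2, 71.8 and 70.2 CPM with DMSO, 127, 132 and 140 CPM with i-BET858, and 80.1, 72.9 and 89.9 CPM with i-BET151. The 3 i-BET858 libraries stood clear of the 6 others. SOCS3 rose by 0.81 on the log2 scale with i-BET858 (SE 0.13, 95% CI 0.54 to 1.09, adjusted p = 5.62e-04), or 1.76-fold, and with i-BET151 the difference was 0.09 (95% CI −0.18 to 0.37, adjusted p = 0.677). At 24 h the ranges were 78.3 to 106 CPM with DMSO, 75.4 to 86.0 CPM with i-BET858 and 76.0 to 106 CPM with i-BET151. The 24 h groups overlapped, with differences of −0.21 (adjusted p = 0.297) and −0.09 (adjusted p = 0.706).

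STAT3 (chr17:42313324-42388540, minus strand), the transcription factor of the pathway, ranged from 94.4 to 171 CPM over the 18 libraries, and its groups overlapped in every comparison with DMSO. The differences at 4 h were −0.03 with i-BET858 (95% CI −0.43 to 0.36, adjusted p = 0.914) and −0.08 with i-BET151 (95% CI −0.47 to 0.32, adjusted p = 0.828). At 24 h they were 0.27 with i-BET858 (95% CI −0.07 to 0.61, adjusted p = 0.186, or 0.0244 with the replicate block) and 0.20 with i-BET151 (95% CI −0.14 to 0.53, adjusted p = 0.363). These counts measure the STAT3 transcript and not its phosphorylation.

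JAK1 (ENSG00000162434.12, chr1:64833223-65067754, minus strand), a kinase bound to IL6ST, had the highest CPM of the 10 genes. At 4 h it had 231, 219 and 211 CPM with DMSO, 266, 334 and 282 CPM with i-BET858, and 267, 259 and 260 CPM with i-BET151. At 24 h it had 209, 195 and 159 CPM with DMSO, 357, 304 and 325 CPM with i-BET858, and 332, 373 and 338 CPM with i-BET151. Every treated library was above every DMSO library at both times, with a wider gap at 24 h. JAK1 rose by 0.42 on the log2 scale with i-BET858 at 4 h (SE 0.11, adjusted p = 0.0122), a call lost with total library size as the scaling (0.26, adjusted p = 0.0939) and without i-BET858 replicate 2 (adjusted p = 0.0510). With i-BET151 at 4 h the difference was 0.25 (SE 0.11, adjusted p = 0.155, or 0.0379 with the replicate block). At 24 h JAK1 rose by 0.77 with i-BET858 (SE 0.11, 95% CI 0.52 to 1.02, adjusted p = 2.91e-04) and by 0.87 with i-BET151 (SE 0.11, 95% CI 0.62 to 1.12, adjusted p = 2.18e-04), or 1.71-fold and 1.83-fold. LINC01359, on the same strand, shares 4.91% of the exon bases of JAK1.

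**Figure D2:**
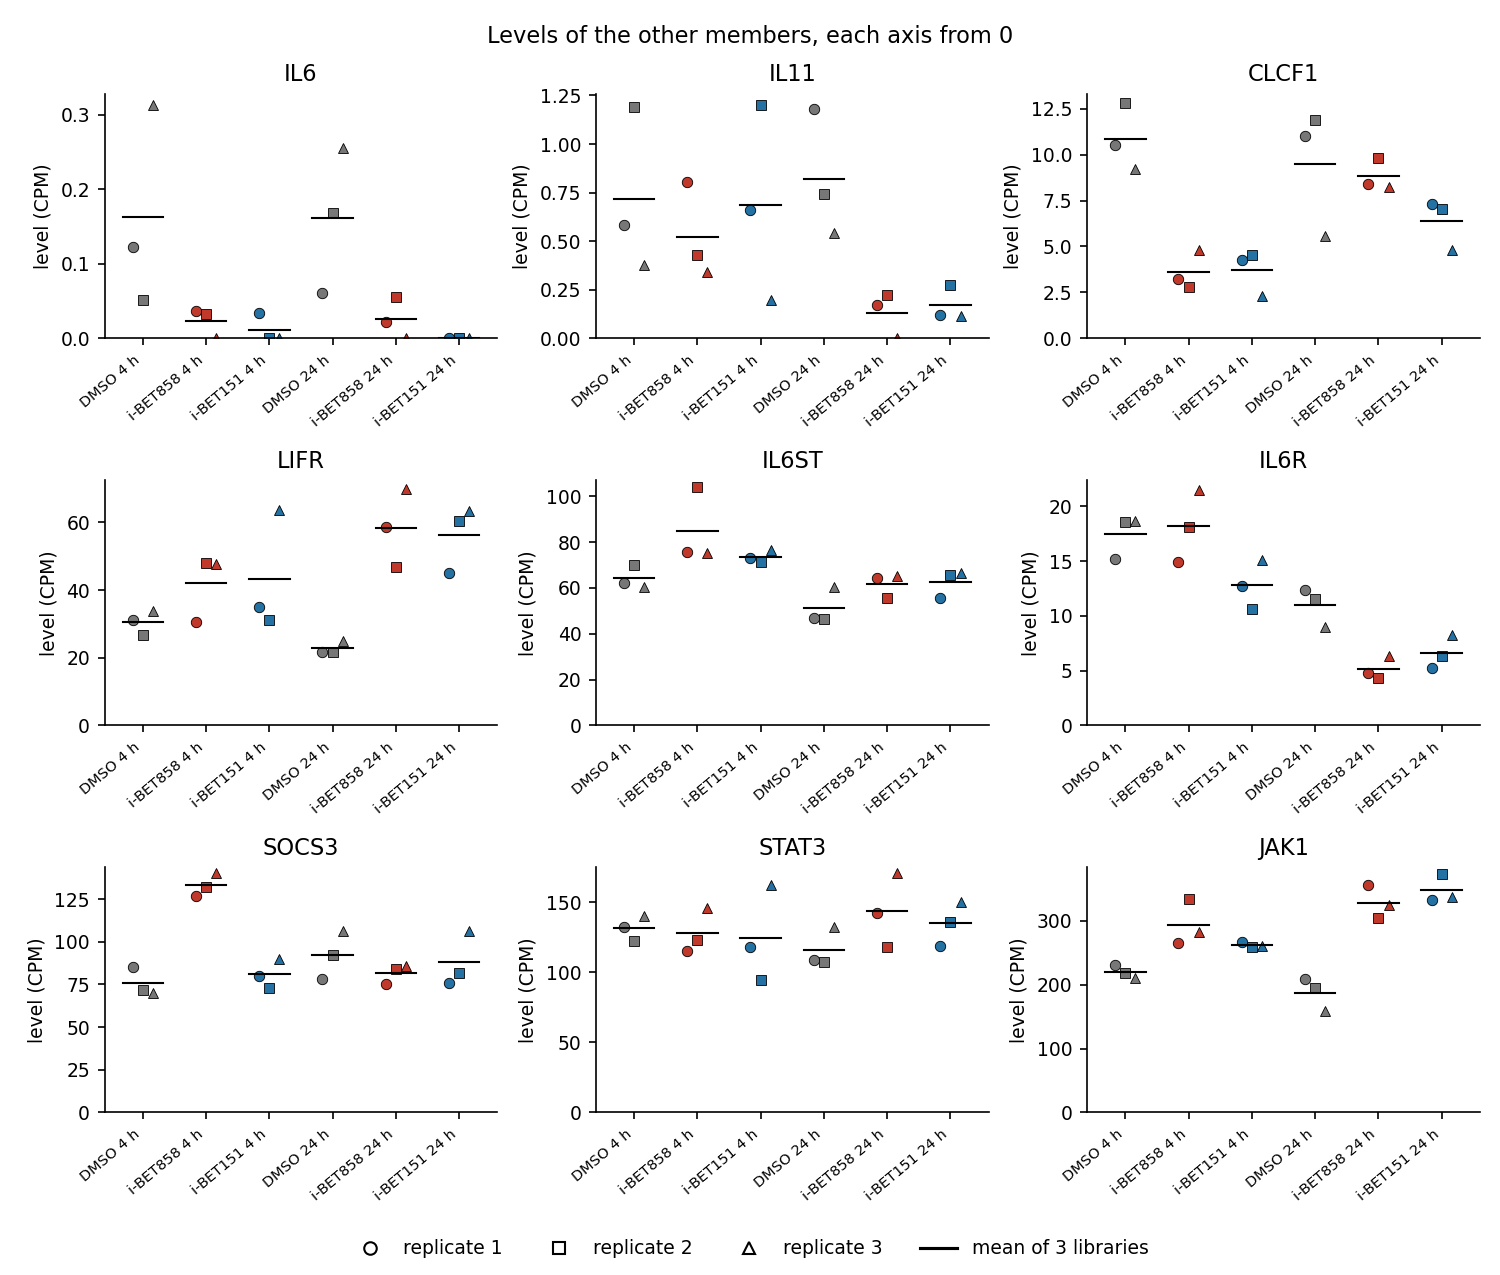
Level in CPM (linear axes from 0) of the 9 genes other than LIF in each of the 18 libraries, by condition. Symbols mark the replicate number and lines the mean of 3 libraries. CLCF1 is at 4.83 CPM or less in the treated libraries of 4 h, LIFR is at 45.0 CPM or more in the treated libraries of 24 h, and SOCS3 is at 127 CPM or more in the i-BET858 libraries of 4 h.

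Counted together at 4 h, and without LIF, 8 genes passed the filter. With i-BET858, SOCS3 and JAK1 rose and CLCF1 fell at an adjusted p under 0.05, compared to 30.8% of all genes tested (14.5% higher and 16.3% lower), and only CLCF1 was also changed at least 2-fold, as were 14.1% of all genes tested. With i-BET151, CLCF1 alone passed the threshold, and it passed the 2-fold limit, compared to backgrounds of 16.2% (7.81% higher and 8.43% lower) and 7.10%. Without the replicate block, none of the 8 rose with i-BET151 at 4 h by edgeR, and DESeq2 called none. In that direction 1 (JAK1) had an unadjusted p under 0.05. With the block, JAK1 passed as higher (adjusted p = 0.0379) and IL6R as lower (0.0269) with i-BET151, and IL6ST as higher with i-BET858 (0.00785). The median log2 difference of the 8 genes was 0.23 for i-BET858 and 0.01 for i-BET151, beside 0.02 and 0.01 over all genes.

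At 24 h, 9 genes passed the filter, IL11 through its DMSO libraries only. With i-BET858, LIFR and JAK1 rose and LIF and IL6R fell, all but JAK1 by at least 2-fold, with IL11 left out of the count for that reason. Over all genes, 41.7% passed the threshold (20.5% higher and 21.3% lower) and 18.8% also changed at least 2-fold. With i-BET151, LIFR and JAK1 rose and LIF and IL6R fell, with LIF and LIFR past the 2-fold limit, beside backgrounds of 33.8% (17.2% higher and 16.6% lower) and 13.7%. The replicate block added STAT3 as higher with i-BET858 (adjusted p = 0.0244), and IL6ST as higher (0.0486) and CLCF1 as lower (0.0267) with i-BET151. Groups that did not overlap with DMSO were common over the whole transcriptome at both times, at 44.6% and 36.7% of genes at 4 h and 55.1% and 48.9% at 24 h for i-BET858 and i-BET151. The shares of these genes that changed are thus no result on their own, and the single genes carry the description.

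**Figure D3:**
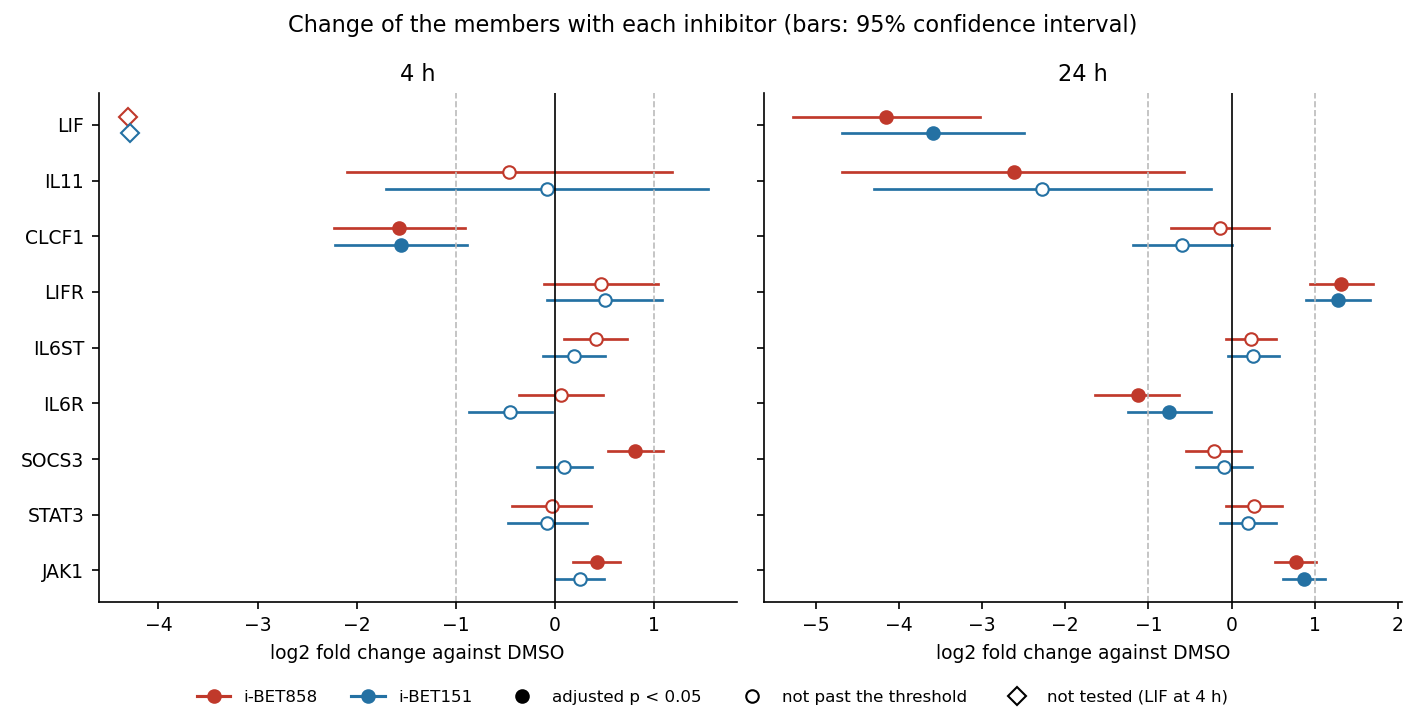
Fitted log2 difference from DMSO with its 95% confidence interval for 9 genes at 4 h and 24 h. Filled points have an adjusted p under 0.05, dashed lines mark 2-fold, and diamonds mark LIF at 4 h, which was not tested. LIF lies at −4.31 and −4.29 at 4 h, and LIFR is beyond 2-fold only at 24 h. IL11 at 24 h passed the filter through its DMSO libraries only, so that nothing is read from its points there.

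The effect of i-BET858 differed between the times for 3 of the 8 genes tested (27.2% of all genes did so at an adjusted p under 0.05, and 15.1% by at least 2-fold). For CLCF1 the effect was 1.47 higher on the log2 scale at 24 h than at 4 h (SE 0.42, 95% CI 0.58 to 2.36, adjusted p = 0.0145). IL6R had an effect that was lower at 24 h (difference −1.15, SE 0.30, adjusted p = 0.00798), as did SOCS3 (difference −0.98, SE 0.19, adjusted p = 0.00108). CLCF1 fell and SOCS3 rose with i-BET858 at 4 h, and neither passed the threshold at 24 h. Under 1 of 18 alternatives, CLCF1 was lower past the threshold at 24 h. IL6R fell at 24 h and did not pass the threshold at 4 h. With the replicate block, the effect of i-BET858 was also higher at 24 h for LIFR (0.90, adjusted p = 0.00460, compared to 0.0534 without the block) and JAK1 (0.40, adjusted p = 0.0243, compared to 0.0728).

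For i-BET151, the effect on JAK1 was 0.64 higher at 24 h than at 4 h (SE 0.16, 95% CI 0.31 to 0.97, adjusted p = 0.0118), beside 13.8% of all genes at this threshold and 6.70% that also changed at least 2-fold. With the replicate block, CLCF1 (1.03, adjusted p = 0.0396, compared to 0.136) and LIFR (0.83, adjusted p = 0.0125, compared to 0.126) passed as well. LIF was not tested here because its 4 h libraries were used to choose it. Its 24 h difference was 0.21 higher than its 4 h difference for i-BET858 and 0.71 higher for i-BET151.

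The inhibitors were compared directly at the matched dose of 1 µM and at each time. At 4 h, SOCS3 was higher with i-BET858 than with i-BET151 by 0.72 on the log2 scale (95% CI 0.44 to 1.00, adjusted p = 0.0298), or 1.65-fold, with no overlap between the groups. It was the only one of the 8 genes tested past the threshold, beside 0.971% of all genes. This call was lost when only those 2 groups were fitted (adjusted p = 0.0855) and without DMSO replicate 2, i-BET151 replicate 1 or 2, or any i-BET858 replicate (adjusted p = 0.0563 to 0.153), and it held with the replicate block and with DESeq2. IL6R was higher with i-BET858 in 8 of 9 pairs of libraries (0.51, 95% CI 0.09 to 0.93, adjusted p = 0.295, or 0.0443 with the replicate block). The fitted difference of LIF at 4 h was −0.02, given without a test.

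For the other genes at 4 h the intervals of the difference included 0. They were −0.68 to 0.65 for CLCF1, −0.61 to 0.54 for LIFR, −0.10 to 0.53 for IL6ST, −0.35 to 0.44 for STAT3 and −0.07 to 0.41 for JAK1. These intervals bound a difference between the inhibitors to less than 2-fold in either direction for these genes. For IL11 the interval of −2.03 to 1.27 was too wide to do so.

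At 24 h none of the 9 genes differed between the inhibitors by edgeR, none had an unadjusted p under 0.05, and DESeq2 called none, beside 0.210% of all genes. The difference of LIF was −0.55 (95% CI −1.65 to 0.54, adjusted p = 0.783), which leaves room for a level more than 2-fold lower with i-BET858. For LIFR the interval was −0.33 to 0.41, for JAK1 −0.34 to 0.15, for SOCS3 −0.46 to 0.21 and for IL6R −0.88 to 0.12. CLCF1 was higher with i-BET858 in all 9 pairs of libraries at 24 h, with a difference of 0.45 (95% CI −0.15 to 1.04, adjusted p = 0.619).

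**Figure D4:**
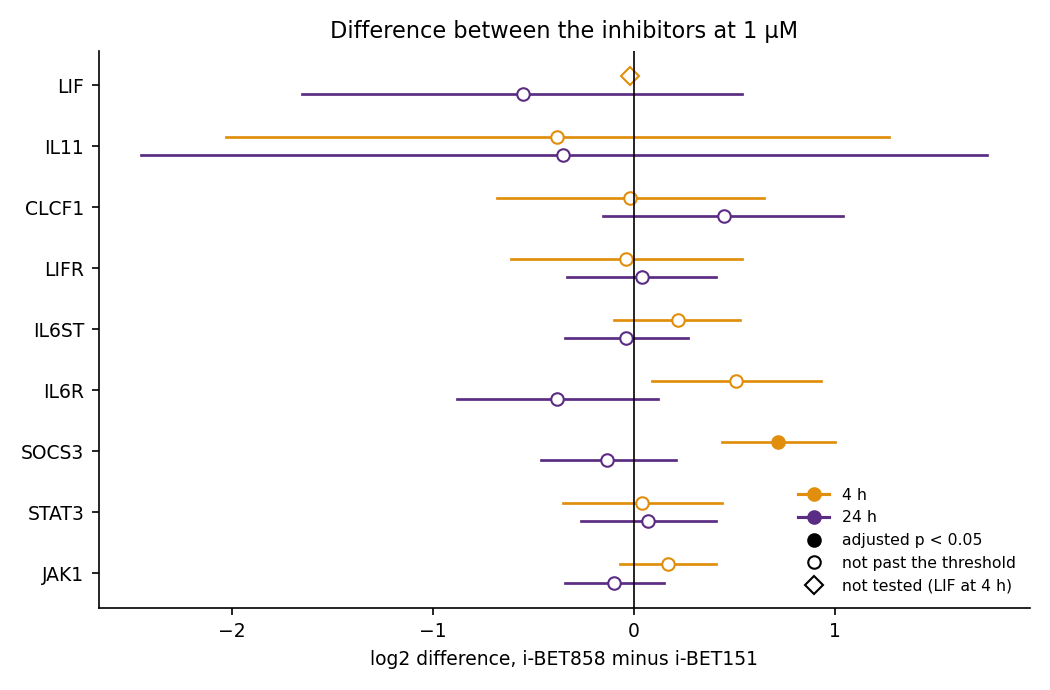
Fitted log2 difference between i-BET858 and i-BET151 at 1 µM with its 95% confidence interval, at 4 h and 24 h. The filled point is SOCS3 at 4 h (0.72), the single difference at an adjusted p under 0.05, and the diamond is LIF at 4 h, which was not tested.

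Vehicle alone gave few differences between 4 and 24 h. None of the 8 genes tested passed the threshold by edgeR, beside 0.0386% of all genes, and 2 of them (IL6ST and IL6R) had an unadjusted p under 0.05. Of these 8, IL6R, LIFR and JAK1 were lower at 24 h in all 9 pairs of DMSO libraries. The share of all genes separated in this way is not given, so that nothing is read from this separation. The difference was −0.68 for IL6R (95% CI −1.12 to −0.23, adjusted p = 0.259), −0.42 for LIFR (95% CI −0.92 to 0.08, adjusted p = 0.657) and −0.23 for JAK1 (95% CI −0.47 to 0.00, adjusted p = 0.546). DESeq2 called none of the 8 genes at 2-fold here.

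Levels can be compared between genes only per length, and CPM per kilobase of the canonical GENCODE 44 transcript was used for this. With DMSO at 4 h, JAK1 stood highest at 43.3 ± 1.95 CPM per kilobase (SD, n = 3), followed by SOCS3 at 27.7 ± 3.01 and STAT3 at 26.7 ± 1.89. LIF (7.42 ± 2.43), IL6ST (7.11 ± 0.576) and CLCF1 (6.35 ± 1.06) formed the next group on that scale, and IL6R (3.04 ± 0.347) and LIFR (2.90 ± 0.342) the one after it. IL11 (0.301 ± 0.177) and IL6 (0.144 ± 0.120) were lowest per kilobase. Neighbours within each of these groups overlapped, as did SOCS3 and STAT3, whereas JAK1 was separate. The order of the top 3 depended on the length, since over the union of all exons SOCS3 (27.7) stood above JAK1 (16.7) and STAT3 (11.7). With i-BET858 at 24 h, LIF was at 0.278 ± 0.189 and LIFR at 5.54 ± 1.10 CPM per kilobase, so that their order was the opposite of that with DMSO.

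Further genes of the pathway were taken from a list of 64 drawn up from general knowledge, of which 53 were tested at 4 h and 51 at 24 h. With i-BET858 at 4 h, 14 rose and 9 fell. With i-BET151 at 4 h, 7 rose and 6 fell (14 and 8 with the replicate block). At 24 h, 20 rose and 15 fell with i-BET858, and 17 rose and 16 fell with i-BET151. The falls at 24 h, and the 24 h shares below, include STAT5A, which passed the filter through its DMSO libraries only, so that 14 and 15 falls remain without it. The share past the threshold was 43.4% and 24.5% at 4 h and 68.6% and 64.7% at 24 h for i-BET858 and i-BET151, beside the 30.8%, 16.2%, 41.7% and 33.8% of all genes given above. The share that also changed at least 2-fold was 17.0% and 7.55% at 4 h and 27.5% and 25.5% at 24 h, beside 14.1%, 7.10%, 18.8% and 13.7% of all genes. The median log2 difference of the list was 0.21 and 0.05 at 4 h and 0.23 and 0.13 at 24 h, beside 0.02, 0.01, −0.01 and 0.00 over all genes.

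Of the 8 other ligands, 4 were tested at 4 h and 2 at 24 h, the rest being too low. None of them passed the threshold by edgeR in any comparison with DMSO, and with i-BET151 at 24 h 1 had an unadjusted p under 0.05. This was CTF1 (cardiotrophin 1), named after its values were seen, with a difference of −1.73 (adjusted p = 0.0517), which the replicate block moved past the threshold (−1.88, adjusted p = 0.0161). Of the receptors, CNTFR, the alpha receptor for the related cytokine CNTF, rose from 0.658 to 0.921 CPM with DMSO at 4 h to 4.29 to 7.48 CPM with i-BET858 and 3.12 to 4.58 CPM with i-BET151. Its log2 difference was 2.94 (SE 0.31, adjusted p = 4.39e-05) and 2.31 (SE 0.31, adjusted p = 5.38e-04). At 24 h IL27RA, a receptor chain for IL27, fell by 2.88 with i-BET858 and by 2.36 with i-BET151 (adjusted p = 2.58e-05 and 1.37e-04), and the leptin receptor LEPR rose by 1.22 and 1.04 (adjusted p = 0.00194 and 0.00656). LEPR thus rose and IL27RA fell at 24 h, when CNTFR did not pass the threshold (0.47, adjusted p = 0.324 for i-BET858, and 0.88, adjusted p = 0.0791 for i-BET151). OSMR, the receptor chain for oncostatin M, lay outside the rule for named genes and was picked after its values were seen. It fell at 24 h by 1.34 with i-BET858 and by 1.01 with i-BET151 (adjusted p = 2.05e-04 and 0.00169).

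Among negative regulators, SOCS1, an inhibitor of JAK kinases, had the largest rise of the list with i-BET858 at 4 h. Its level was 2.55, 2.27 and 1.94 CPM with DMSO at 4 h, 23.6, 20.5 and 28.5 CPM with i-BET858, and 11.6, 11.6 and 7.36 CPM with i-BET151. All treated libraries were far above all DMSO libraries, and the i-BET858 libraries were above the i-BET151 libraries. SOCS1 rose by 3.43 on the log2 scale with i-BET858 (SE 0.24, adjusted p = 3.05e-06) and by 2.17 with i-BET151 (SE 0.23, adjusted p = 1.45e-04), compared to 0.81 and 0.09 for SOCS3. It was higher with i-BET858 than with i-BET151 by 1.26 at 4 h (95% CI 0.78 to 1.74, adjusted p = 0.0296). Of the 53 list genes tested there, 3 were higher and 1 lower (10 and 4 with the replicate block). That is 7.55% without the block, beside 0.971% of all genes. Of the alternatives, only the replicate block is given for the pathway list. At 24 h SOCS1 rose by 1.79 with i-BET858 (SE 0.33, adjusted p = 0.00142), and with i-BET151 the difference was 0.86 (adjusted p = 0.0674, and 0.00183 once blocked by replicate). Between the inhibitors at 24 h SOCS1 differed by 0.93 (adjusted p = 0.281, and 0.0107 with the block).

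Of the other kinases, STATs and adaptors, 14 of 15 were tested. At 24 h STAT6, the transcription factor of IL4 signalling, fell by 1.98 with i-BET858 and by 2.07 with i-BET151 (SE 0.17 for both, adjusted p = 9.44e-06 and 1.42e-05). JAK2 rose by 1.04 with i-BET151 (SE 0.19, adjusted p = 0.00205), and its difference with i-BET858 was 0.90 (adjusted p = 0.00352). STAT5A lay outside the rule for named genes because of its low level and was picked after its values were seen. Its 24 h counts were 74, 76 and 59 with DMSO, 4, 6 and 15 under i-BET858, and 5, 6 and 0 under i-BET151 (fitted log2 differences −3.31 and −4.43). Like IL11, it passed the 24 h filter through its DMSO libraries, so that no test is given.

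Known STAT3 targets moved in both directions. Of 16 tested, 6 rose and 3 fell with i-BET858 at 4 h, and 4 rose and 4 fell with i-BET151, with median log2 differences of 0.32 and −0.02. At 24 h, 5 rose and 8 fell with i-BET858 and 4 rose and 10 fell with i-BET151, with medians of −0.38 and −0.61. The share past the threshold was 56.2% with i-BET858 at 4 h, 81.2% at 24 h and 87.5% with i-BET151 at 24 h, beside 30.8%, 41.7% and 33.8% of all genes, and the 8 of 16 with i-BET151 at 4 h stand beside 16.2%. FOS, an AP-1 subunit, rose in all 4 comparisons, by 2.11 and 1.28 at 4 h and by 1.77 and 1.41 at 24 h with i-BET858 and i-BET151. BCL6, a transcriptional repressor, rose by 1.52 and 0.78 at 4 h (adjusted p = 1.15e-05 and 0.00208) and by 0.57 and 0.34 at 24 h (adjusted p = 0.00211 and 0.0391). The kinase gene PIM1 rose by 1.12 and 0.97 at 4 h and by 1.09 and 0.83 at 24 h (adjusted p = 2.24e-04 to 0.00605). BCL3, a regulator of NF-kappaB, fell by 1.16 and 1.13 at 4 h (adjusted p = 0.00752 and 0.0159) and by 1.86 and 1.72 at 24 h (adjusted p = 1.95e-04 and 4.80e-04). The survival gene BCL2L1 fell at 4 h by 1.26 with i-BET858 and by 0.94 for i-BET151 (adjusted p = 1.63e-05 and 3.12e-04). At 24 h BCL2L1 was instead higher with i-BET858, by 0.62 (adjusted p = 3.44e-04), at 267 to 308 CPM beside 172 to 189 CPM with DMSO. At 24 h the mucin gene MUC1 fell by 2.34 and 2.84 and the adhesion gene ICAM1 by 2.25 and 1.90 with i-BET858 and i-BET151.

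**Figure D5:**
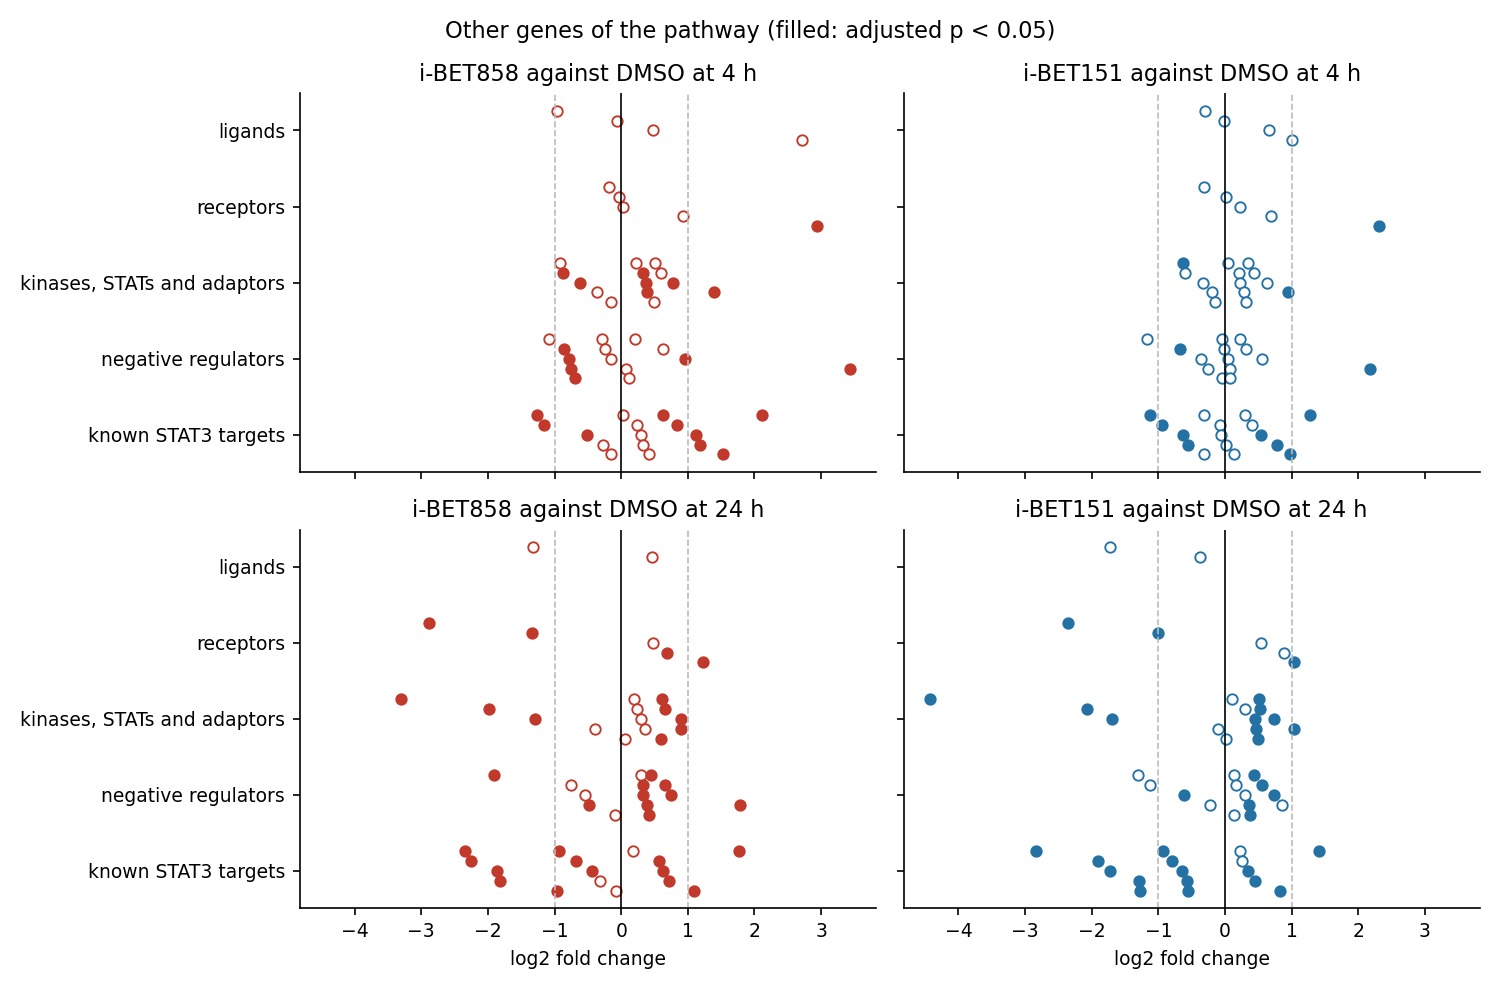
Fitted log2 difference from DMSO of each tested gene of the pathway list, by role, in the 4 comparisons. Filled points have an adjusted p under 0.05 and dashed lines mark 2-fold. The highest point at 4 h is SOCS1 (3.43 with i-BET858), and the lowest at 24 h is STAT5A (−4.43 with i-BET151).

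The 5 genes whose log2 CPM over the 18 libraries was most like that of LIF, among 14081 compared, were PRR5L (Pearson r = 0.952), DFFB (0.948), LURAP1L (0.946), INHBB (0.945) and CHCHD4 (0.943). These correlations are a description over libraries that share their conditions. With condition means taken out they were 0.595 (CHCHD4) to 0.883 (DFFB). INHBB, the inhibin beta B subunit, was at a mean of 90.4 CPM with DMSO at 24 h, 21.9 CPM with i-BET858 and 33.5 CPM with i-BET151. Of the other family members, IL6 had a correlation with LIF of 0.794 (0.270 with condition means taken out), at 0 to 10 counts per library. For IL11, also low, it was 0.663 (0.799), and for CLCF1 0.584 (0.264). LIFR had −0.822 (−0.709), STAT3 −0.442 (−0.807), JAK1 −0.739 (0.184) and IL6R 0.348 (−0.453), so that the sign turned within conditions for JAK1 and IL6R. Taking out condition means leaves in what libraries of the same replicate number share, and the part of this in the correlations was not tested.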

How the data were processed

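The authors sequenced poly-A RNA from OVCAR-3 cells in paired reads (6 conditions, 3 biological replicates each, 18 libraries). What they deposited is 1 raw, unscaled count for each gene. For this the authors used STAR, both to align to GRCh38/hg38 after a FastQC check and to count genes. The gene annotation, the strand and the versions are not given in the sources used here. Of 58825 genes, 58472 (99.4%) matched GENCODE 44, which gave symbols, positions and lengths. The limit of 3 counts covers counting error only. The standard errors and confidence intervals of the log2 differences came from the edgeR fit described below, and they include the spread between replicates.

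The 9 libraries of a time entered 1 edgeR model (version 4.0.16, R 4.3.3) with its quasi-likelihood test, after TMM scaling and edgeR's own filter at a minimum count of 10. The change of an effect between times and the comparison of DMSO at both times came from a fit of all 18 libraries. The p-values were adjusted by Benjamini-Hochberg over all genes, and a gene was called at an adjusted p under 0.05 and a fold of at least 2. Levels are CPM scaled by TMM factors (0.893 to 1.09). Between replicates, counts differed by 4.19 to 66.1 times counting error (chi-square per degree of freedom, 18 pairs). The fit was tested on simulated data.

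The 10 genes and the pathway and marker lists were chosen with earlier results of these data known. From the pathway list, up to 4 called genes with the largest rise and up to 4 with the largest fall in each comparison with DMSO were named, at an average log2 CPM of at least 0. Likeness to LIF was measured on log2 CPM with a prior count of 2.

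Replicate numbers come from the sample titles. With group means taken out, libraries of the same number had correlations of 0.125 to 0.344 at 4 h and 0.145 to 0.330 at 24 h, and those of other numbers −0.311 to 0.216 and −0.304 to 0.285. Since every correlation of the same number was over 0.1, the numbers were taken to pair the libraries, although these ranges overlapped at both times. The main tests, intervals and counts came from the model without the replicate block. The fit with the replicate block is given beside a result for the 10 genes, and for the pathway list, where it was added after seeing the data, beside a named value or count that it moved past the threshold or by over 1.5 times. DESeq2 1.42.0, other scalings, filters, sample sets and call rules, and leaving out libraries were the alternatives. RefSeq promoters had no entry for LIF and CLCF1. Figures were drawn with matplotlib 3.10.9.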

Additional observations from a re-analysis of the deposited data

Results flagged for a closer look

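The effect of an inhibitor differed between 4 and 24 h for 4 genes by the test of that difference, 3 of 8 tested for i-BET858 and 1 of 8 for i-BET151 (12.5%), beside 27.2% and 13.8% of all genes. With i-BET858, CLCF1 differed by 1.47 on the log2 scale (adjusted p = 0.0145), from a mean of 3.62 CPM against 10.8 with DMSO at 4 h to 8.81 against 9.49 at 24 h. IL6R differed by −1.15 (adjusted p = 0.00798), from 18.1 against 17.5 CPM to 5.13 against 11.0. SOCS3 differed by −0.98 (adjusted p = 0.00108), from 133 against 75.7 CPM to 81.7 against 92.1. With i-BET151, JAK1 differed by 0.64 (adjusted p = 0.0118), from 262 against 220 CPM to 348 against 188. For CLCF1, the lowest of the 3 DMSO libraries at 24 h had 5.57 CPM, and without single libraries its difference was 1.20 to 1.71 (adjusted p = 0.00720 to 0.0426).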

How the results depend on the processing

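Of 18 differences past the threshold, 14 stayed past it under every alternative run. Over 349 alternatives to the 18, 328 kept the direction and the call, 21 lost the call and none turned its direction. This tally holds IL11 with i-BET858 at 24 h, with 17 alternatives and 8 lost calls. It passed the filter through DMSO only, so that nothing is read from its part. The other exceptions were IL6R with i-BET151 at 24 h, JAK1 with i-BET858 at 4 h and SOCS3 between the inhibitors at 4 h. Their values stand in the report. The causes of these losses were not tested. The replicate block moved 11 differences past the threshold, all named in the report, and ended none of the 18 calls. Added for the pathway list after seeing the data, it ended no call there either (0 of 6 comparisons lost any). For ICAM1, named for its 24 h values, it turned the 4 h difference with i-BET858 from 0.02 to −0.01.

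The number of the genes called moved with the rule. IL11 at 24 h is left out here, since it passed the filter through its DMSO libraries only. Without it, 3 genes were called for i-BET858 and 2 for i-BET151 at 24 h, whichever single library was left out. Other alternatives that kept the 2-fold rule gave 2 to 3 and 1 to 3. By adjusted p alone the number was 3 for i-BET858 at 4 h (2 at 1.5-fold), 4 for i-BET151 at 24 h (4 at 1.5-fold), 1 between the inhibitors at 4 h (1 at 1.5-fold) and 1 for the change of the i-BET151 effect (1 at 1.5-fold). Over all genes, 30.8%, 33.8%, 0.971% and 13.8% passed by adjusted p alone in these comparisons. No share over all genes is given for the 1.5-fold limit or for the rules below. These counts are thus no result on their own. With at least 10 counts in every library, which removed LIF and IL11 at 24 h, it was 2 for i-BET858 and 1 for i-BET151. With replicates 1 and 2 only, it was 2 for the change of the i-BET151 effect, where the replicate block gave 1. Without single libraries the counts were 2 to 3 and 0 to 1 for the changes of the i-BET858 and i-BET151 effects.

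Directions turned only for differences that had not passed the threshold. With total library size, the difference was −0.11 for IL6R with i-BET858 at 4 h, and −0.02 for LIFR at 24 h and −0.05 for STAT3 at 4 h between the inhibitors. With the replicate block it was 0.02 for CLCF1 and 0.00 for LIFR between the inhibitors at 4 h. With replicates 1 and 2 only, it was 0.05 for IL11 and −0.05 for SOCS3 with i-BET151 at 4 h and −0.04 for IL6R with i-BET858 at 4 h. Between the inhibitors it was then 0.25 for LIFR at 4 h and 0.04 for IL11, 0.06 for LIF and 0.02 for SOCS3 at 24 h. The difference of LIF between the inhibitors at 24 h thus turned without the libraries numbered 3, as did the change of its i-BET151 effect (−0.16) and of its i-BET858 effect (−0.06).

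Without single libraries, the differences with i-BET858 at 4 h were −0.89 to 0.11 for IL11, −0.08 to 0.18 for IL6R and −0.14 to 0.04 for STAT3, and at 24 h −0.39 to 0.05 for CLCF1. With i-BET151 they were −0.76 to 0.50 for IL11 and −0.31 to 0.09 for STAT3 at 4 h and −0.25 to 0.05 for SOCS3 at 24 h. Between the inhibitors they were −0.28 to 0.16 for CLCF1, −0.83 to 0.30 for IL11, −0.22 to 0.35 for LIFR and −0.12 to 0.28 for STAT3 at 4 h. At 24 h they were −0.88 to 0.21 for IL11, −0.10 to 0.03 for IL6ST, −0.11 to 0.18 for LIFR, −0.21 to 0.05 for SOCS3 and −0.07 to 0.19 for STAT3. The change of the i-BET858 effect was −0.25 to 0.03 for IL6ST and −0.26 to 0.67 for LIF, and LIF between the inhibitors at 4 h was −0.48 to 0.43.

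At this depth IL6 and, with the inhibitors at 24 h, IL11 were near the limit of detection.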
